A study of Mus musculus with 4 samples.

Results

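The expression of 10 calcium handling genes of cardiomyocytes was followed by single-cell RNA sequencing of mouse embryonic heart ventricles. The genes were chosen by symbol, 10 of the 55405 in the count matrices, and each was found in all 4 libraries. The embryos carried either 1 floxed Gata4 allele (Gata4fl/+, Gata4_het) or 2 (Gata4fl/fl, Gata4_KO), with 2 libraries for each genotype, here het 1, het 2, KO 1 and KO 2. All 4 libraries also carried the Rosa26mTmG/+ reporter and the Cdh5(Pac)-CreER transgene, received tamoxifen at E9.5 and were collected at E12.5, so the controls shared the Cre, the reporter, the drug and 1 floxed allele with the KO. The Cdh5 promoter drives the Cre in endothelium, so cardiomyocytes are not its target cells. Pooling of embryos within a library is not stated.

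In a heart muscle cell each beat begins when L-type channels (Cacna1c forms the pore) let calcium in and that calcium opens the ryanodine receptor Ryr2 of the sarcoplasmic reticulum. Triadin (Trdn) and calsequestrin 2 (Casq2) sit on the inner side of Ryr2, with the histidine-rich calcium-binding protein Hrc, and hold the store. SERCA2 (Atp2a2) pumps calcium back, held in check by phospholamban (Pln) and sarcolipin (Sln), the sodium-calcium exchanger Slc8a1 expels calcium, and the pacemaker channel Hcn4 drives spontaneous depolarisation.

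Both SERCA inhibitors are very short membrane proteins, which is why their transcripts are set beside that of the pump below. Their reading frames are shown because atrial-like cells differed from the other cardiomyocyte classes in both inhibitors, with Sln present and less Pln. They were read from the GRCm38 genome with GENCODE M21 models: sarcolipin, 31 amino acids, from 96 coding bases at chr9:53853473-53853568 (plus strand), and phospholamban, 52 amino acids, from 159 coding bases at chr10:53343864-53344022 (plus strand). Capitals are not used in these, and the last 3 bases are the stop codon.
Sln: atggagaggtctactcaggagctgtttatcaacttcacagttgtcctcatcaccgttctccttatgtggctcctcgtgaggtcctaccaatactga
Pln: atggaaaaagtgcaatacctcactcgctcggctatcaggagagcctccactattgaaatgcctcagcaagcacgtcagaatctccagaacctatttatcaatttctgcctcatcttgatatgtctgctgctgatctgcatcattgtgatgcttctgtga

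The promoters of 4 members are shown because their transcripts set the classes apart: Casq2, Hrc and Hcn4 were the members furthest above compact-like cells in trabecular-like cells, and Pln did not follow them. Each is the 250 bases before the RefSeq start, on the GRCm38.p6 build and the gene's own strand, and 7 of the 10 members were in the RefSeq table used. Sln, Atp2a2 and Trdn had no entry. The windows were Casq2 at chr3:102086165-102086414, Hrc at chr7:45335019-45335268, Hcn4 at chr9:58822699-58822948 and Pln at chr10:53337436-53337685, all on the plus strand. Capitals mark a match to a GATA motif (the letters GATA with A or T before them and A or G after, either strand) or to the MEF2 motif. Over 32851 promoters of that length, 26.5% held a GATA match, 2.92% a MEF2 match and 12.6% the TEAD motif CATTCC.
Casq2: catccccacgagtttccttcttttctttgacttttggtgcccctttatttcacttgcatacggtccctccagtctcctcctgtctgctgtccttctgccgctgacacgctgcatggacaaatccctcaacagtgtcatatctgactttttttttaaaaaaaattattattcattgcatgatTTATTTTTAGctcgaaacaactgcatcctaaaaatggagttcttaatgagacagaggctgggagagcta
Hrc: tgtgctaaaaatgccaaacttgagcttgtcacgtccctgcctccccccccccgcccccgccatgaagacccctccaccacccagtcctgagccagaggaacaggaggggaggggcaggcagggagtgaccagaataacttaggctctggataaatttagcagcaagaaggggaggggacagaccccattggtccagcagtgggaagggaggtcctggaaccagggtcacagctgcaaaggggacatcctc
Hcn4: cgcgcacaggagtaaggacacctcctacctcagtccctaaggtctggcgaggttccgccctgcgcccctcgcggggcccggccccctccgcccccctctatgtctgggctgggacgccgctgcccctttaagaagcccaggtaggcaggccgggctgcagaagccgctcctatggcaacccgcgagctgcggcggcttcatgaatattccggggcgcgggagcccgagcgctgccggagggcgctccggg
Pln: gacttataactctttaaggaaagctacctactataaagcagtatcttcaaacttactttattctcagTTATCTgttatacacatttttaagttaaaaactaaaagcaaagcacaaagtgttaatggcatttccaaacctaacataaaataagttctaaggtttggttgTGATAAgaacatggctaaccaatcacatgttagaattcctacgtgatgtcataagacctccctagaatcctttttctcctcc

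The Casq2 window held 1 MEF2 match, 69 bases before the start, and the Pln window 2 GATA matches, the nearer at 82 bases. Those of Hrc and Hcn4 held none of the 3 motifs. Their GC content ran from 32.8% in Pln and 41.6% in Casq2 to 59.6% in Hrc and 71.2% in Hcn4. A match is a string of letters and not a measured binding site.

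The libraries held 137890971 to 190207638 UMIs (unique molecular identifiers, each counting 1 captured RNA molecule) over 8597 to 23459 barcodes, where the labels state an input of about 10000 cells. Pairs of libraries shared 23 to 103 barcodes. There were 2427, 2618, 3554 and 2364 cardiomyocyte-like cells of at least 3000 UMIs, with the libraries in the order het 1, het 2, KO 1, KO 2. Library het 1 stood apart: 1190 of its cells fell in clusters that mixed cardiomyocyte with other transcripts and were left out, against 31 to 120 in the others. A further 3499, 2925, 2416 and 1702 of its barcodes formed 4 clusters, left unnamed and not used here, in which cardiomyocyte markers took at least 2.72% of UMIs, and the other libraries had 3 to 139 barcodes in each. In het 1, 738 of 1052 compact-like cells came from a single cluster, cluster 1. Gata4 was counted at the 3′ end, which need not lie in the deleted part and so checks neither genotype. It stood at 89.7 and 81.1 CPM (UMI counts per 1000000 of the class) in endothelial-like cells of het 1 and het 2 and at 168 and 158 in KO 1 and KO 2, and in cardiomyocyte-like cells at 69.6, 62.1, 65.0 and 60.6.

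Clusters were built with the 10 genes and the wider pathway lists left out, and named from markers. Trabecular-like cells (68, 91, 108 and 59 in the 4 libraries, the order used throughout) held 14306 CPM of Nppa and 211 of Bmp10 on average, against 318 and 3.03 in compact-like cells. Atrial-like cells (32, 76, 79 and 26) held 219 of Nr2f1, against 1.33 in compact-like cells, and also 249 of Shox2 and 144 of Tbx3, so the cluster joins atrial with sinus and atrioventricular markers although the labelled tissue is ventricle. The Shox2 mean hides a wide spread, 664, 28.9, 279 and 21.7 in the 4 libraries. Cycling-like cells (334, 446, 586 and 334) held 618 of Top2a, against 58.2 in compact-like cells. Compact-like cells (1052, 864, 1024 and 683) had the highest mean Hey2, 139 against 46.7 in trabecular-like cells. The compact label rested mainly on low trabecular, atrial and mitotic markers, by a rule set after the clusters were seen. Of its 4 clusters, numbered 1, 5, 8 and 9, cluster 5 alone stood above the clustered cells in the mean of the 8 compact markers (log2 difference 0.45), against −0.11, −0.25 and −0.14 in the other three, and cluster 8 was led by DNA replication genes. A further 38.8%, 43.6%, 49.4% and 53.4% of the cardiomyocyte-like cells lay in clusters that took none of these 4 names, several of them led by histone or mitotic genes. They enter only the values over all cardiomyocyte-like cells.

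Cell quality moved with class and bears on every comparison below. In clusters 1, 8 and 9 and in the cycling-like cluster 4, mitochondrial UMIs averaged 0.466% to 3.21% of a cell and the nuclear RNA Malat1 951 to 9726 CPM. In the compact-like cluster 5, the cycling-like cluster 10, and the trabecular-like and atrial-like clusters they were 4.57% to 9.92% and 12790 to 26086. For this reason the ratios of trabecular-like and atrial-like to compact-like cells that the text turns on are given both over all compact-like cells and over cluster 5 alone, whose median depth (9825, 22597.5, 13898.5 and 29502 UMIs) was nearer to that of trabecular-like cells (10237, 27591, 18544.5 and 40879). The cluster 5 comparison was chosen after seeing the data. Markers of other cell types were low in trabecular-like and atrial-like cells: the endothelial, mesenchymal and epicardial lists each took at most 0.0218% of UMIs in any library, with the endothelial gene Cldn5 at 0 in all 4, and the erythroid list 0.145% to 1.94%. Since the classes come from clustering the same cells, differences between them are described without a test.

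**Figure D1:**
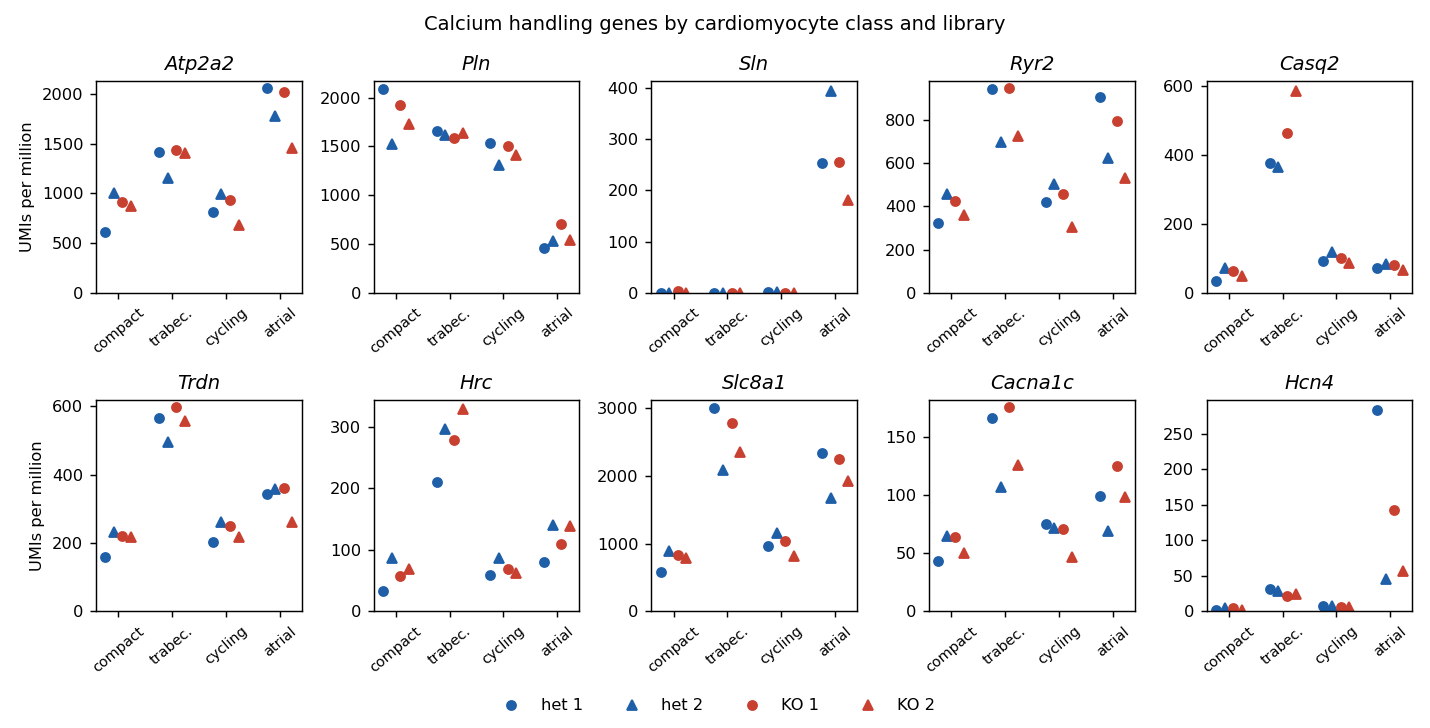
Level of each of the 10 genes in CPM (linear axis from 0) in compact-like, trabecular-like, cycling-like and atrial-like cells, 1 point for each library (het blue, KO red, circle replicate 1, triangle replicate 2). Sln lies between 181 and 394 in atrial-like cells and at most 3.33 elsewhere, Casq2 and Hrc are highest in trabecular-like cells, and Pln is lowest in atrial-like cells.

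The inhibitors of the SERCA pump divided atrial-like cells from the other named classes. The pump itself did so only with all compact-like cells as the reference. Levels are given as CPM, the gene's UMIs over all UMIs of the class in that library, scaled to a common total. Atp2a2 (chr5:122453513-122502225, minus strand) stood at 2058, 1774, 2015 and 1459 in atrial-like cells, 1414, 1159.7, 1439.7 and 1409 in trabecular-like, 813, 991, 938 and 679 in cycling-like and 612, 1009.5, 911 and 873 in compact-like cells. Every atrial-like value lay above every trabecular-like one, and those above the compact-like and cycling-like values, which overlapped. Against cluster 5 the order was lost: that cluster held 1900.4, 1538, 2002 and 1840.2, had Atp2a2 among its 10 leading genes, and lay above trabecular-like cells in 4 of 4 libraries (log2 ratio of trabecular-like to compact-like −0.42 ± 0.04, SD, n = 4, against 0.69 ± 0.41 over all compact-like cells). Atrial-like cells were level with cluster 5 on average (−0.0014 ± 0.24, higher in 3 of 4 libraries).

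Phospholamban (Pln, chr10:53337667-53345987, plus strand) ran the other way. It stood at 2088, 1527, 1924 and 1731 CPM in compact-like cells, 1653, 1615, 1589 and 1641 in trabecular-like, 1539.9, 1313, 1506 and 1408 in cycling-like, and 462, 535, 704 and 538 in atrial-like cells. Every atrial-like value lay below every value of the other classes. Atrial-like cells held 3.26-fold less than compact-like cells (log2 ratio −1.71 ± 0.33, SD, n = 4, lower in 4 of 4 libraries), and 2.73-fold less than cluster 5 (−1.45 ± 0.25, lower in 4 of 4), so this difference did not depend on which compact-like cells were used. Trabecular-like and compact-like cells overlapped (−0.15 ± 0.19, higher in 1 of 4 libraries), and against cluster 5 the sign turned (0.10 ± 0.17, higher in 3 of 4). Cep85l lies across Pln on the other strand. The strand setting of the count is not given in the sources used here, and whether any Cep85l reads entered the Pln count was not checked.

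Sarcolipin (Sln, chr9:53850164-53854560, plus strand), which inhibits SERCA in atrial and skeletal muscle, was nearly absent from the other 3 named classes. Atrial-like cells held 133, 803, 285 and 125 Sln UMIs, or 254, 394, 255 and 181 CPM. Compact-like cells, many times more numerous, held 5, 10, 38 and 5 UMIs in all, and 11 of the 38 in KO 1 came from a single cell. Trabecular-like cells held 0, 0, 1 and 1, where a count of 0 allows up to 2.36 and 1.06 CPM in het 1 and het 2. Log2 ratios of atrial-like to compact-like cells were 8.88, 9.38, 6.26 and 8.78. Cluster 5 held Sln UMIs only in het 2 and KO 1, where the ratios were 9.23 and 5.03. Erythroid-like cells, which should lack the gene, gave 0.0743 to 0.318 CPM.

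Within the atrial-like cluster the inhibitors divided the cells again. Of 213 atrial-like cells 105 held at least 1 Sln UMI, 13, 46, 37 and 9 in the 4 libraries, against 19, 30, 42 and 17 without. The values of het 1 and KO 2 therefore rest on few cells. In the cells with Sln, Pln stood at 254, 131, 348 and 84.8 CPM, against 739, 1207, 1054 and 739 in the cells without. Pln was thus 2.91-, 9.20-, 3.03- and 8.72-fold lower in the cells with Sln, in 4 of 4 libraries. Atp2a2 went the opposite way, 1.40-, 1.55-, 1.43- and 2.50-fold higher in the cells with Sln, as did Ryr2 (1.78-, 1.17-, 1.09- and 1.47-fold). The split was made after the values had been seen and is given as a description, and it follows detection: cells with Sln had median depths of 22510, 20685, 12489 and 11741 UMIs, against 8248, 19423, 12500 and 24380. The part of depth in these differences was not tested.

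Cells with Sln also held more Myl7, the atrial myosin light chain (1.43-, 3.85-, 2.57- and 4.11-fold), and more Nr2f1, an atrial transcription factor, in 3 of 4 libraries (304, 302, 401 and 203 CPM against 396, 70.5, 71.1 and 29.2). Hcn4 showed no common direction. It was seen in 69.2%, 45.7%, 51.4% and 44.4% of the cells with Sln and in 47.4%, 56.7%, 45.2% and 47.1% of those without, and its level in het 1 was lower in the cells with Sln, 117 against 508 CPM. Rspo3 was higher in the cells without Sln in 3 of 4 libraries, among them 609.8 against 28.3 CPM in KO 2. Tbx3 was also higher in the cells without Sln in het 2, KO 1 and KO 2. Shox2 went the other way in those libraries, 2.13-, 2.03- and 3.38-fold higher in the cells with Sln. Bmp2 was higher with Sln in het 1, het 2 and KO 1 (8.21-, 1.34- and 3.86-fold). Nppa had no common direction, so sinus and atrioventricular markers did not all fall on one side. After each cell was thinned to 3000 UMIs, Sln was seen in 37.5%, 44.7%, 31.6% and 26.9% of atrial-like cells (unthinned 40.6%, 60.5%, 46.8% and 34.6%) and in 0.0896% to 0.128% of erythroid-like cells. Pln was seen in 68.8%, 48.7%, 57.0% and 42.3% of atrial-like cells, against 97.1% to 99.2% of compact-like and 5.81% to 20.5% of erythroid-like cells, so Pln was seen in atrial-like cells more often than in erythroid-like cells.

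The ratio of inhibitor to pump UMIs does not depend on how a library is scaled, but it does move with depth. In the deep compact-like cells compared below, Atp2a2 was 5.80-fold higher and Pln 1.23-fold lower than in the shallow ones. The compact-like values that follow are over all compact-like cells. Pln over Atp2a2 was 3.41, 1.51, 2.11 and 1.98 in compact-like cells, 1.17, 1.39, 1.10 and 1.16 in trabecular-like, 1.89, 1.32, 1.60 and 2.07 in cycling-like, and 0.224, 0.302, 0.349 and 0.369 in atrial-like cells. The atrial-like mean was 0.311 ± 0.064 (SD, n = 4) against 1.21 ± 0.13 in trabecular-like cells, with no overlap. Relative to cluster 5 alone, trabecular-like cells held less Atp2a2 (log2 ratio −0.42) and, on average, slightly more Pln. The higher Pln over Atp2a2 of compact-like than of trabecular-like cells therefore turned round on average with that reference. Atrial-like cells stayed below cluster 5 in this ratio, with Pln lower and Atp2a2 level on average (−0.0014). Sln over Atp2a2 was 0.123, 0.222, 0.127 and 0.124 in atrial-like cells and averaged at most 0.0014 in each other class. Adding Sln to Pln thus left atrial-like cells with the lowest inhibitor share in each library. By genotype, Pln over Atp2a2 overlapped in compact-like and cycling-like cells. In trabecular-like cells both KO values lay below both het values (1.13 ± 0.04 against 1.28 ± 0.16, SD, n = 2 each), and in atrial-like cells both lay above (0.359 ± 0.014 against 0.263 ± 0.054). An exact permutation test of 2 libraries against 2 cannot go below p = 0.333 (two-sided), so these differences could not be tested.

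**Figure D2:**
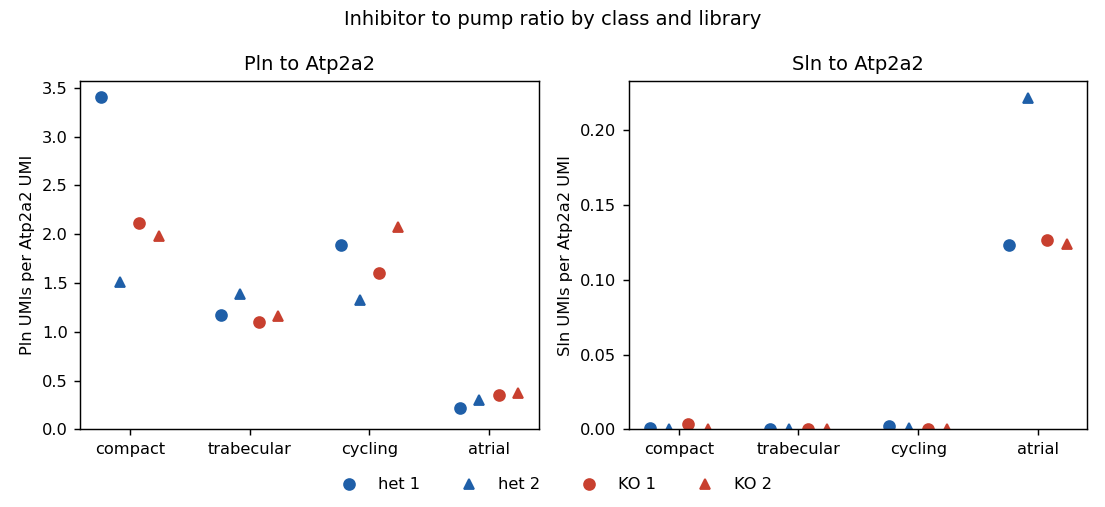
UMIs of Pln and of Sln divided by those of Atp2a2 in each class, 1 point for each library (het blue, KO red). Compact-like values are over all compact-like cells. Atrial-like cells have the lowest Pln ratio, 0.224 to 0.369, and the only Sln ratio above 0.01, 0.123 to 0.222.

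Of the release complex, Casq2, Hrc and Trdn were highest in trabecular-like cells with either compact-like reference, and Casq2 stood out among them. Casq2 (chr3:102086415-102146514, plus strand), the calcium buffer of the store, stood at 376, 364, 465 and 586 CPM in trabecular-like cells. It was at 93.5, 117, 101 and 85.3 in cycling-like cells, 72.5, 84.8, 79.7 and 66.6 in atrial-like cells and 35.5, 71.9, 63.1 and 49.4 in compact-like cells. No value in another class exceeded 117, while atrial-like and compact-like values overlapped. The fold over compact-like cells was 8.28 (log2 3.05 ± 0.56, SD, n = 4), and over cluster 5, which held 86.1, 107, 147 and 105, it was 4.03 (2.01 ± 0.38), higher in 4 of 4 libraries each time. Atrial-like cells held less Casq2 than cluster 5 in 4 of 4 libraries (−0.53 ± 0.29), although more than all compact-like cells (0.51 ± 0.36).

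Hrc (chr7:45335290-45338974, plus strand), another luminal calcium binder, stood at 209.9, 297, 279 and 329 CPM in trabecular-like cells and at 33.2, 86.6, 57.4 and 69.7 in compact-like cells, without overlap. It was 4.72-fold higher (log2 2.24 ± 0.36, SD, n = 4) and 2.21-fold higher than in cluster 5 (1.15 ± 0.04), in 4 of 4 libraries. Atrial-like cells, at 80.2, 140.3, 109 and 139, overlapped cycling-like cells (58.9 to 87.5) and cluster 5 (91.3 to 154).

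Trdn (chr10:33080554-33476709, plus strand), which anchors calsequestrin to the release channel, stood at 564, 494, 597 and 557 CPM in trabecular-like cells, above 344, 357, 362 and 262 in atrial-like cells and 159.7, 232, 222 and 218 in compact-like cells. Its trabecular-like to compact-like log2 ratio was 1.42 ± 0.30 (SD, n = 4), and 0.80 ± 0.16 against cluster 5, both above 0 in 4 of 4 libraries.

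Ryr2 (chr13:11553102-12106945, minus strand), the release channel itself, did not share this difference once cluster 5 was the reference. It stood at 941, 696, 946 and 724 CPM in trabecular-like cells and at 321, 458, 423 and 362 in compact-like cells, a log2 ratio of 1.08 ± 0.39 (SD, n = 4). Cluster 5 held 905, 695, 914 and 715, nearly the trabecular-like values library by library (0.03 ± 0.03). Atrial-like cells, at 907, 623, 795 and 532, overlapped trabecular-like cells between libraries but lay below them within each of the 4 (−0.23 ± 0.17). Casq2 over Ryr2 UMIs therefore differed between classes: it averaged 0.556 ± 0.177 (SD, n = 4) in trabecular-like cells, 0.240 ± 0.028 in cycling-like, 0.138 ± 0.020 in compact-like and 0.110 ± 0.025 in atrial-like cells, the last pair overlapping.

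The genes of entry and extrusion were also higher in trabecular-like cells. Slc8a1 (chr17:81373105-81738377, minus strand), the exchanger that carries calcium out across the surface membrane, stood at 3005, 2089, 2779 and 2358 CPM in trabecular-like cells. It was at 2331, 1675, 2244 and 1919 in atrial-like cells, 958, 1158, 1039 and 812 in cycling-like cells and 588, 884, 838 and 785 in compact-like cells. Trabecular-like and atrial-like values overlapped between libraries, but the first lay above the second within each of the 4 (log2 ratio of atrial-like to trabecular-like −0.32 ± 0.03, SD, n = 4). Against compact-like cells trabecular-like cells stood 3.31-fold higher (1.73 ± 0.47), and against cluster 5 1.54-fold (0.62 ± 0.08), in 4 of 4 libraries.

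Cacna1c (chr6:118587240-119196418, minus strand), the L-type channel pore, stood at 167, 107, 176 and 126 CPM in trabecular-like cells and 43.7, 64.5, 64.1 and 50.3 in compact-like cells. The difference shrank from 1.36 ± 0.49 on the log2 scale to 0.29 ± 0.11 against cluster 5 (SD, n = 4). Atrial-like values, 69.1 to 125, overlapped both trabecular-like and cycling-like ones (47.2 to 74.9). Dcp1b overlaps Cacna1c on the other strand, so the same limit on strand applies as for Pln.

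Hcn4 (chr9:58823412-58863175, plus strand) ordered the classes without overlap. Atrial-like cells held 284, 46.1, 142 and 56.4 CPM, trabecular-like cells 31.4, 28.2, 22.2 and 23.9, cycling-like cells 7.39, 7.62, 6.92 and 6.01, and compact-like cells 2.69, 4.86, 5.09 and 1.98. The atrial-like level varied widely between libraries, and het 1, with 32 atrial-like cells, was highest. Shox2 in atrial-like cells was likewise higher in het 1 and KO 1 (664 and 279 CPM) than in het 2 and KO 2 (28.9 and 21.7). Whether the make-up of the cluster differed between libraries was not tested. Trabecular-like cells were 7.73-fold above compact-like cells (log2 2.95 ± 0.74, SD, n = 4) and 4.74-fold above cluster 5 (2.25 ± 0.54), and atrial-like cells 29.9-fold and 18.3-fold (4.90 ± 1.42 and 4.20 ± 1.12), each in 4 of 4 libraries. After thinning to 3000 UMIs a Hcn4 UMI was seen in 34.4%, 11.8%, 25.3% and 19.2% of atrial-like cells, 3.39% to 10.3% of trabecular-like cells and 0.146% to 0.926% of compact-like cells, against 0 to 0.213% in erythroid-like cells. The share in trabecular-like cells rested on 2 to 7 cells a library. Outside cardiomyocytes, epicardial-like cells held 12.7 to 20.8 CPM.

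**Figure D3:**
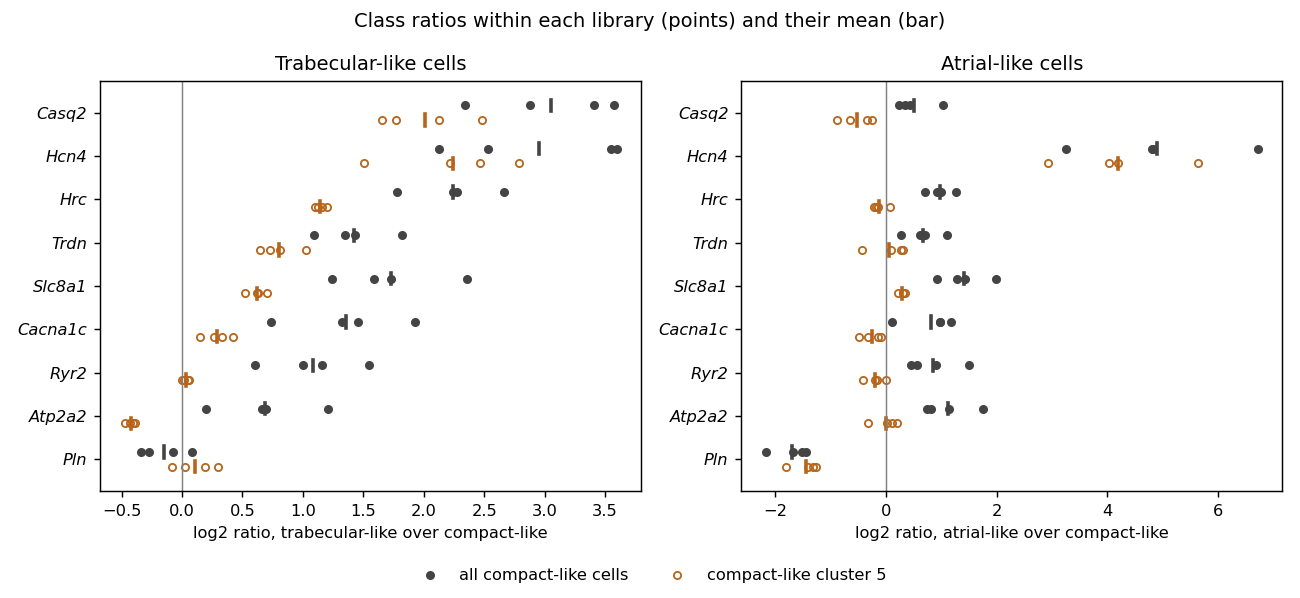
Log2 ratio of each gene's level in trabecular-like and in atrial-like cells to that in compact-like cells, 1 point for each library, against all compact-like cells (filled) or cluster 5 alone (open), with the mean as a bar. In trabecular-like cells Casq2, Hcn4 and Hrc stay above 1 on average with both references, Ryr2 falls to about 0 and Atp2a2 turns below 0. In atrial-like cells Pln is below 0 with both.

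Counted together, 8 of the 10 genes stood higher in trabecular-like than in compact-like cells in all 4 libraries, where 37.5% of 8180 genes with at least 10 CPM did, and 7 did so by 2-fold or more on average (11.3% of genes). The limit of 10 CPM is a mean over the 4 named classes and all libraries, atrial-like cells included. The median over the 10 was 1.38 on the log2 scale, against 0.05 over all genes. Against cluster 5 the count was 7 (20.8% of 8404 genes), 3 of them by 2-fold or more (2.86%), and the medians 0.45 and −0.08. In atrial-like cells 9 were higher than in compact-like cells (48.2% of genes), 4 by 2-fold (14.3%), and 1, Pln, lower in all 4 (18.8%), by more than 2-fold (2.05%). Against cluster 5 only Slc8a1, Hcn4 and Sln were higher on that count (32.7% of genes), Hcn4 and Sln by 2-fold (6.09%), and Pln, Casq2 and Cacna1c were lower (17.3%), Pln by 2-fold (2.14%), so for the first count the share of members was near the background. Sln passed the limit of 10 CPM only through atrial-like cells, so its place among the higher genes there was fixed in advance. Hcn4 averaged 3.78 and 3.53 CPM (het and KO) in compact-like cells and 7.51 and 6.47 in cycling-like cells. It thus passed the limit only through trabecular-like and atrial-like cells, and its place in these counts adds no support.

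Cycling-like cells differed little. Hcn4 (log2 1.04 ± 0.58, SD, n = 4), Casq2 (0.89 ± 0.34) and Slc8a1 (0.36 ± 0.27) were higher than in compact-like cells in 4 of 4 libraries (39.1% of all genes were) and Pln was lower (−0.33 ± 0.09; 21.8% of genes). By the count on log2(CPM + 1), none was 2-fold higher (2.68% of genes) or 2-fold lower (0.196%). Between the 2 deeper clusters, 10 and 5, Hcn4 and Casq2 stayed higher in 4 of 4 (0.90 ± 0.37 and 0.59 ± 0.40; 23.5% of genes were), while Atp2a2, Ryr2 and Pln were lower in 4 of 4 (−0.36 ± 0.16, −0.27 ± 0.17 and −0.18 ± 0.13; 20.9% of genes) and Slc8a1 did not differ in one direction (−0.02 ± 0.15).

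Depth and mitochondrial content moved with most of these genes inside a single class too. In compact-like cells of at least 12000 UMIs, against those of 3000 to 6000, Slc8a1 was 8.18-fold higher, Casq2 7.28-, Atp2a2 5.80-, Ryr2 5.28-, Cacna1c 5.22- and Hrc 5.20-fold, Trdn 1.89-fold, and Pln 1.23-fold lower, in 4 of 4 libraries each. Mitochondrial UMIs averaged 2.74% to 4.51% in the deep cells and 0.824% to 1.75% in the shallow ones, and Malat1 7741 to 10129 and 1908 to 2691 CPM. Of these 8 genes, Pln alone was not higher in the deep cells. Among cells of at least 10000 UMIs, trabecular-like cells were above compact-like cells in 4 of 4 libraries for Casq2 (6.58-fold), Slc8a1 (2.67-fold), Ryr2 (1.73-fold) and Atp2a2 (1.30-fold, but 1.04-fold in het 2), with 35 to 89 trabecular-like cells a library. This limit did not equalise depth or leave out clusters 1, 8 and 9. Median depths were 15041, 21118.5, 14214 and 19473.5 UMIs in these compact-like cells and 29691, 28455, 21321 and 41685 in trabecular-like cells. Against cluster 5, as given above, Ryr2 was level and Atp2a2 lower. The part of mitochondrial content in the differences between classes was not tested apart from the comparison with cluster 5.

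**Figure D4:**
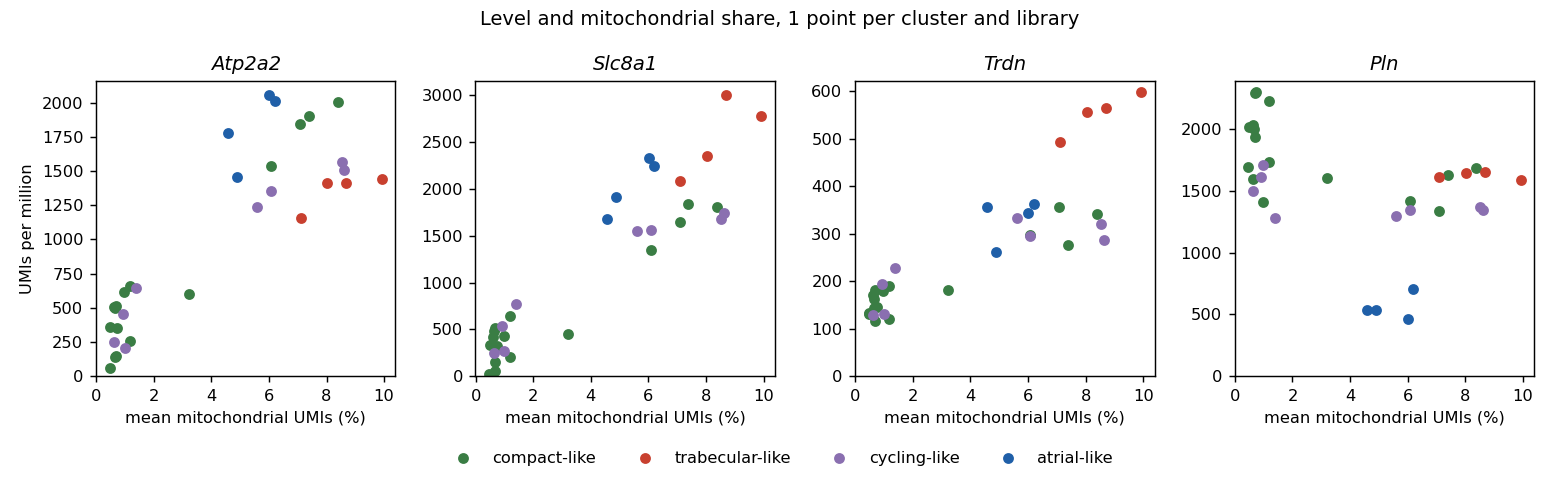
Level of Atp2a2, Slc8a1, Trdn and Pln in CPM against the mean mitochondrial percentage of cells, 1 point for each cardiomyocyte cluster and library. Atp2a2, Slc8a1 and Trdn are higher in the clusters with 4.57% to 9.92% mitochondrial UMIs, while Pln shows no such rise and is lowest in the atrial-like cluster.

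The remaining genes of the pathway were taken as 8 lists, of which 105 of 107 genes were in the matrices. Of 70 with at least 10 CPM, 44 were higher in trabecular-like than in compact-like cells in all 4 libraries and 17 lower, where 37.5% and 32.4% of all genes were. Against cluster 5 it was 35 and 20 of 71, where 20.8% and 32.8% of all genes were. Those higher than in cluster 5 were 8 of 16 genes of calcium release, 5 of 6 of uptake, 4 of 7 calcium channel subunits, 6 of 8 of extrusion, 3 of 4 pacemaker and potassium channels, 7 of 18 kinases and phosphatases, 1 of 8 of mitochondrial calcium and 1 of 4 of store-operated entry. The list medians were highest for the pacemaker group (0.98) and uptake (0.60) and lowest for mitochondrial calcium (−0.11), against −0.08 for all genes.

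Several genes from these lists were picked after their values were seen and are given as a description. In trabecular-like cells against cluster 5, Cacna2d2, a calcium channel accessory subunit, stood 3.46 ± 1.04 higher on the log2(CPM + 1) scale (SD, n = 4), Thbs4 2.21 ± 0.35, the surface calcium pump Atp2b4 1.35 ± 0.09 and the inositol trisphosphate receptor Itpr2 1.34 ± 0.26. Ryr3, another ryanodine receptor, was lower by a log2 ratio of −3.39 ± 0.74, at 0.502 against 14.7 CPM, and Kcne1, a potassium channel subunit in the trabecular marker list, by −1.43 ± 0.13. In atrial-like cells Ryr3 was instead higher, at 71.2 CPM (2.21 ± 0.15), as were Casq1, the skeletal calsequestrin (2.19 ± 0.30), the L-type channel Cacna1d of pacemaker cells (3.62 ± 0.42) and the acetylcholine-gated potassium channel genes Kcnj3 and Kcnj5 (2.71 ± 0.41 and 2.94 ± 0.28). Each was in the stated direction in 4 of 4 libraries. Cacna2d2 (5.37 ± 0.58) was higher too, but was among the markers that named that cluster. Casq1 was above cluster 5 in trabecular-like cells too, by less (0.68 ± 0.39, in 4 of 4 libraries), at 63.4 CPM against 181 in atrial-like cells. Ryr3 differed from cluster 5 in opposite directions in these classes.

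The genes with the most similar profiles were found over 14 combinations of class and library with at least 50 cells, which share libraries, depth and cell quality. Only genes averaging at least 20 CPM over these profiles were ranked. Genes of chromosomes X and Y, ribosomal, mitochondrial and globin genes, and genes with provisional or clone names were left out. Casq2 was nearest to Srl, which encodes sarcalumenin, a calcium binder of the same store (r = 0.988 across the profiles), Pln to the ventricular myosin light chains Myl2 (0.962) and Myl3 (0.944), and Sln to Nr2f1 (0.981) and Myl7 (0.976). Trdn was nearest to Rcn1 (0.989), Hrc to Dad1 (0.988), Slc8a1 to Kcnq1ot1 (0.991), Ryr2 to Vps13d (0.980), Cacna1c to Trpm7 (0.976), Atp2a2 to Sspn (0.969) and Hcn4 to Emp2 (0.970). Among the members the closest pairs were Ryr2 with Slc8a1, Trdn with Hrc and Slc8a1 with Trdn (each r = 0.97), and the most opposed was Pln with Sln (−0.91). Nr2f1 and Myl7 were atrial markers that named the cluster, and these values are descriptions. Atrial-like cells entered only from het 2 (76 cells) and KO 1 (79 cells). The Sln values, with that of Pln and Sln, therefore rest largely on those profiles, since Sln was nearly absent from the rest.

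The genotypes were compared to see whether calcium handling transcripts of the muscle differed between hearts with 1 and with 2 floxed Gata4 alleles. None of the 10 genes was called in any class. UMIs were summed per library and class and tested with edgeR's quasi-likelihood test, Benjamini-Hochberg adjusted over 16017 genes in all cardiomyocyte-like cells, 13243 in compact-like, 10653 in trabecular-like and 11962 in cycling-like cells. It called 0 genes (0%) in each, with 250, 102, 261 and 219 genes at an unadjusted p under 0.05, or 1.56%, 0.77%, 2.45% and 1.83%. DESeq2 called 0, 0, 1 and 1 gene and limma-voom 0. Sln passed the filter on low counts only in all cardiomyocyte-like cells together. Atrial-like cells were not tested, having fewer than 50 cells in 2 libraries. Levels below are CPM scaled by TMM factors.

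In compact-like cells Pln and Atp2a2 did not separate the genotypes. Pln stood at 2175 and 1459 in het and 1880 and 1781 in KO, the KO values lying between the het ones, and the log2 difference of KO minus het was 0.01 (SE 0.24, 95% interval −0.47 to 0.49). For Atp2a2 the levels were 638 and 964 against 889.7 and 898, again with KO inside the het range (0.16, SE 0.24, −0.31 to 0.63). Ryr2 in the same cells differed by 0.02 (SE 0.23) and Slc8a1 by 0.16 (SE 0.23). The 95% intervals of these 4 genes ran from −0.47 to 0.63.

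Casq2 in trabecular-like cells had the lowest p of the tested members. It stood at 360.0 and 367 in het and 454 and 622 in KO, the KO values above the het ones, a log2 difference of 0.56 (SE 0.24, edgeR unadjusted p = 0.0310, adjusted p = 0.999). Hrc in these cells was at 200.7 and 299 against 272 and 350 (0.31, SE 0.24), with overlap. Hcn4 was at 30.1 and 28.4 in het and 21.7 and 25.4 in KO, the KO values below (−0.30, SE 0.25). Of 9 members tested there, 3 (Casq2, Atp2a2 and Trdn) had both KO values above both het values (13.1% of all genes did) and Hcn4 alone below (13.8%), and the differences of Atp2a2 and Trdn were smaller than their errors (0.20, SE 0.25, and 0.18, SE 0.23). In cycling-like cells Cacna1c (−0.26, SE 0.19) and Hcn4 (−0.16, SE 0.29) lay below in both KO libraries and none above (12.7% and 12.2% of genes). No member separated the genotypes in compact-like cells or in all cells together, where 8.35% of genes lay above and 9.13% below, and 9.83% and 11.9%.

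Sln in all cardiomyocyte-like cells stood at 7.14 and 16.3 in het and 10.3 and 4.89 in KO, the values crossing (log2 difference −0.64, SE 0.31, edgeR unadjusted p = 0.0507, adjusted p = 0.9999). Most Sln UMIs came from atrial-like cells (133 of 180, 803 of 893, 285 of 380 and 125 of 167), which were 1.32% and 2.90% of the cardiomyocyte-like cells in het and 2.22% and 1.10% in KO and followed the same order. Hcn4 in all cells was at 11.8 and 7.52 against 9.69 and 5.28 (−0.36, SE 0.26). Within atrial-like cells, untested, Sln stood at 254 and 394 in het and 255 and 181 in KO, and Pln at 462 and 535 against 704 and 538.

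**Figure D5:**
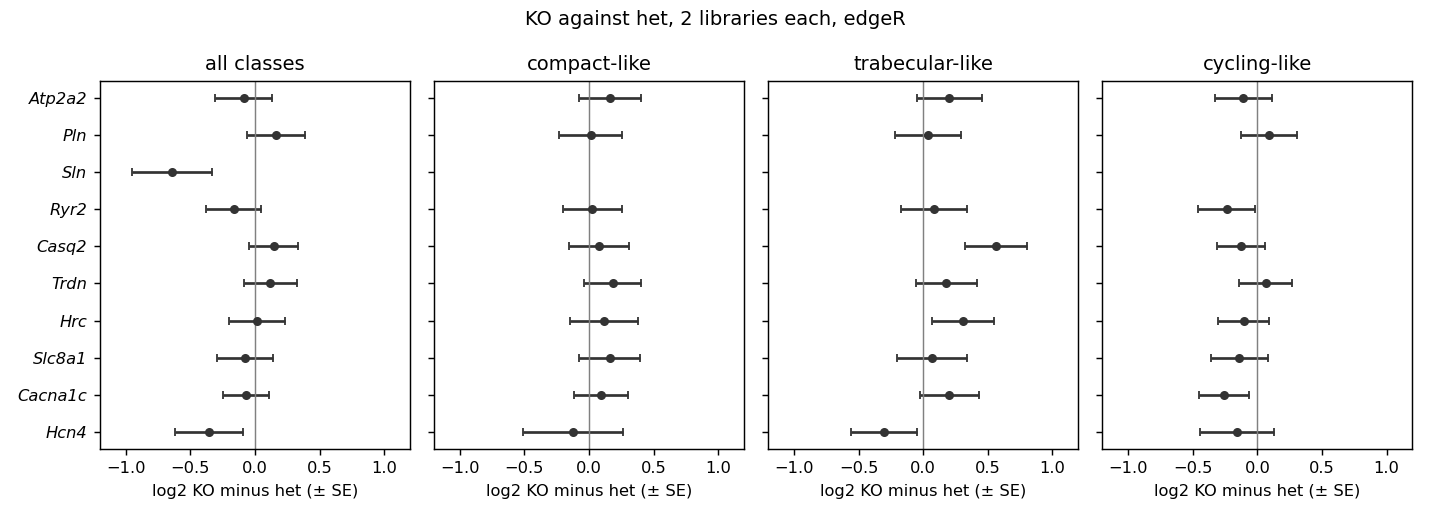
Log2 difference of KO minus het with its standard error for each gene in all cardiomyocyte-like cells and in compact-like, trabecular-like and cycling-like cells, from the edgeR fit on sums per library. Differences run from −0.64 for Sln in all cells to 0.56 for Casq2 in trabecular-like cells, and none passed the adjusted threshold.

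Whether the genotype difference itself varied by class was tested with library as a block. No member passed in trabecular-like against compact-like cells, where 7 of 12998 genes did (0.0539%). The estimate for Casq2 was 0.41, and the members' unadjusted p ran from 0.18 upward, where 2.61% of all genes had one under 0.05. None passed in cycling-like against compact-like cells either, where 2 of 13387 genes did (0.0149%). There Cacna1c (−0.34), Slc8a1 (−0.32), Ryr2 (−0.29) and Atp2a2 (−0.30) had unadjusted p = 0.0201, 0.0272, 0.0312 and 0.0428 in edgeR and adjusted p = 0.9996. Sln came nearest (−4.36, edgeR adjusted p = 0.0582), from 5, 10, 38 and 5 UMIs in compact-like and 8, 13, 2 and 1 in cycling-like cells. Of all genes 3.32% had an unadjusted p under 0.05. In compact-like cells Cacna1c, Slc8a1, Ryr2 and Atp2a2 were lowest in het 1, the library whose compact-like cells came mostly from cluster 1. Whether that make-up bears on these estimates was not tested.

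In the pathway lists none of the 95, 88, 81 and 82 genes tested in all, compact-like, trabecular-like and cycling-like cells was called. In all cells the lowest p belonged to Ryr3, at 7.42 and 11.6 in het and 5.44 and 5.39 in KO (log2 difference −0.82, SE 0.23, edgeR unadjusted p = 0.0019), and Casq1, at 43.0 and 44.8 against 35.4 and 24.8 (−0.54, SE 0.19, unadjusted p = 0.0078), each lower in both KO libraries, with adjusted p = 0.9999. Both stood higher in atrial-like cells than in cluster 5, as given above. The next were Sypl2 of the triad (−0.65, SE 0.34) and Micu2, a gatekeeper of the mitochondrial uniporter (0.35, SE 0.19).

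Outside cardiomyocytes most members were low. Across endothelial-, mesenchymal-, epicardial-, macrophage- and erythroid-like cells, Casq2 stood at 0.224 to 4.40 CPM, Hrc at 0 to 3.44 and Sln at 0 to 0.991. Pln reached 124 in endothelial-like cells of het 1 and 6.38 to 89.6 elsewhere, below its lowest level in a cardiomyocyte class, 462, though not below the 84.8 of the atrial-like cells with Sln in KO 2. Atp2a2 differed from these: it stood at 20.3 to 54.3 in erythroid-like cells and at 121 to 207 in the other 4 types. Slc8a1 was also present outside muscle, averaging 110 (het) and 92.3 (KO) CPM in macrophage-like cells. Its group means were 67.9 to 75.6 in mesenchymal- and epicardial-like cells and 7.36 to 23.2 in endothelial- and erythroid-like cells.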

How the data were processed

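For each of 4 libraries the deposited matrix gave unnormalised UMI counts of genes in barcodes, all of them whole numbers. Per the file headers they were made with Cell Ranger 6.0.1, and the submitters' processing notes name mm10 and Seurat. The labels name both 3′ v2 and a Chromium Next GEM kit. The aligner settings, strand rule and annotation are not given in the sources used here.

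Barcodes with at least 500 genes and under 20% mitochondrial UMIs were kept, and doublets were removed with Scrublet in scanpy 1.11.5 (63 to 403 cells a library; in het 1 and KO 2, where its own threshold called 2 and 1, the mean of the thresholds of the other two libraries was used). Leiden clusters (resolution 1, 20 neighbours) were made first of all cells and then of cardiomyocyte-like cells with at least 3000 UMIs, on 1500 variable genes without the 10 members and the pathway genes. That minimum, the doublet threshold and the rule for compact-like cells were set after the data had been seen. The 10 genes, the lists and the tests were chosen with earlier results of these data known.

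UMIs were summed per library and class. CPM were computed from the deposited counts as a gene's UMIs over those of the class and library, times 1000000. A class was tested where every library had at least 50 of its cells, with edgeR 4.0.16 in R 4.3.3 (filterByExpr, minimum count 10 and total 15, TMM, quasi-likelihood fit, adjusted threshold 0.05). Nothing says that libraries of a group came from separate embryos, so p-values measure only the spread between libraries. Intervals on counts and limits from a count of 0 cover counting error only. For each pathway list the 3 genes with the lowest p were eligible for naming, and for each member the genes with the highest r. Alternatives were DESeq2 1.42.0, limma-voom (limma 3.58.1), no filter, each library left out, a replicate block, other clusterings and cell filters, and, added after seeing the data, cells of at least 10000 UMIs, omission of cluster 1 and clusters of like depth. Gene positions are from GENCODE M21 on GRCm38, which may not be the authors' annotation, and 9 of the 10 identifiers matched with their version.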

Additional observations from a re-analysis of the deposited data

Results flagged for a closer look

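The difference between KO and het varied by class for a few genes outside the calcium handling set. In trabecular-like against compact-like cells 7 genes passed in edgeR with library as a block: the immediate early genes Fos (−1.61, adjusted p = 0.00295), Egr1 (−1.67, adjusted p = 0.00295), Fosb (−1.47, adjusted p = 0.0112) and Ier2 (−1.44, adjusted p = 0.0340) and the histone gene H3c3 (−2.07, adjusted p = 0.0112) had lower log2 differences in trabecular-like cells, and Acta1 (1.83, adjusted p = 0.00295) and Tagln (1.44, adjusted p = 0.0187) higher ones. In cycling-like against compact-like cells 2 genes passed, Fosb (−1.09, adjusted p = 4.62e-06) and Fos (−0.81, adjusted p = 0.00241). The counts over leave-one-out fits were 0 to 236 and 2 to 10, so the first rests on single libraries. None of the 10 calcium handling genes was among these, and no cause was tested.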

How the results depend on the processing

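Depth and the number of libraries limit these comparisons: 2 against 2 libraries, and compact-like clusters that differ in mitochondrial share. The count of genes called between KO and het, 0 as reported, became in all cardiomyocyte-like cells 17 with no filter on low counts, 22 with a replicate block, 2 without globin and mitochondrial genes, 2 at resolution 1.5 and 1 in cells of at least 10000 UMIs. In compact-like cells it became 6 with the block. In trabecular-like cells it was 1 with DESeq2, 28 with no filter and 79 with the block, and in cycling-like cells 1 with DESeq2, 14 with no filter, 14 with the block, 1 at a mitochondrial limit of 10% and 1 in cells of at least 10000 UMIs. Leaving out each library gave 11 to 50 calls in all cells (50 without het 1), 0 to 35 in compact-like (35 without het 1, 24 without KO 1, 9 without KO 2), 1 to 46 in trabecular-like (46 without KO 1) and 0 to 22 in cycling-like cells (22 without het 1); the group left with 1 library is assumed to vary like the other.

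The block result is given here only, since the replicate numbers pair the samples by number alone: same-numbered libraries correlated at 0.40, 0.30, 0.36 and 0.26 in their deviations over genes, from 2 pairs. With the replicate block Casq2 in trabecular-like cells passed (0.56, adjusted p = 0.00293), the only member it moved past the threshold.

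The 7 genes of the trabecular-like interaction became 12 with no filter, 31 with members among the variable genes, 25 without cluster 1, 18 in clusters of like depth and 0 to 236 with a library left out (236 without het 1, 41 without het 2, 0 without KO 2). The 2 of the cycling-like interaction became 1 with DESeq2, 1 at resolution 1.5, 1 in cells of at least 10000 UMIs, 0 without cluster 1, 7 in clusters of like depth and 2 to 10 with a library left out. Other members that passed once were Sln in all cells without het 1 (−1.09, adjusted p = 0.0110), Casq2 and Cacna1c in the trabecular-like interaction without het 1 (0.83, adjusted p = 0.000518, and 0.59, adjusted p = 0.0404), and Sln in the cycling-like interaction with no filter (−4.36, adjusted p = 0.0142) and without KO 2 (−4.86, adjusted p = 0.0177). Among the members' genotype differences under the alternatives, 666 values kept direction and side of the threshold, 110 uncalled ones changed sign and the 6 above passed.

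Of the class ratios with 1 sign in every library, those that changed sign in clusters of like depth were Atp2a2 in trabecular-like (−0.42), Slc8a1 in cycling-like (−0.017) and, in atrial-like cells, Ryr2 (−0.19), Atp2a2 (−0.0014), Casq2 (−0.53), Cacna1c (−0.26) and Hrc (−0.12). Ratios whose sign already varied between libraries also changed sign there: Pln in trabecular-like cells (0.10) and Ryr2 (−0.27), Atp2a2 (−0.36), Cacna1c (−0.15), Hrc (−0.07) and Trdn (−0.04) in cycling-like cells. Slc8a1 in cycling-like cells was −0.12 without cluster 1, and Sln in trabecular-like cells 3.53 at resolution 1.5, from few UMIs. The count of 8 members higher in trabecular-like cells was 8 with each library left out. The atrial-like ratio of Pln to Atp2a2, 0.311, was 0.400 as a mean over cells, 0.384 thinned and 0.292 to 0.340 with a library left out. The cause of these changes was not tested. Trabecular-like cells were not tested at the 10% mitochondrial limit, at resolution 1.5 or above 10000 UMIs, where a library had under 50 cells.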
